A study of Lachancea kluyveri with 31 samples.

Results

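The comparison was between *L. kluyveri* cells that lack both *SEF1* and *AFT1* and wild-type (WT) cells, both starved of iron. All arrays labelled as *sef1*Δ*aft1*Δ at low iron (4) and as WT at low iron (4) were its members, 8 of the 31 arrays of the series. The *sef1*Δ*aft1*Δ strain carries *sef1*Δ::KanMX6 and *aft1*Δ::HphMX4 and was made from the *sef1*Δ::KanMX6 strain. The *aft1*Δ strain carries *aft1*Δ::KanMX6, and the WT strain is the MATa *ura3* parent, so that every strain used here is *ura3*. Each genotype was represented by 1 strain, and the 4 arrays of a group were biological replicates of it. Low-iron cells were grown for 5.5 h in YPD with the ferrous iron chelator BPS, and high-iron cells for 5.5 h in YPD with ferrous ammonium sulfate. The labels give these supplements as 200 mM and 400 mM, whereas the methods give the same figures in µM. The *aft1*Δ and *sef1*Δ arrays at low iron and the *sef1*Δ*aft1*Δ and WT arrays at high iron (4 each) were used as further points of comparison.

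Budding yeasts take up iron by reducing ferric iron at the cell surface and moving the ferrous iron through an oxidase and permease pair, or by importing iron bound to siderophores. In *Saccharomyces cerevisiae* the activator Aft1 enters the nucleus when iron is scarce and switches on the genes of both routes. In *Candida albicans* the iron-uptake activator is instead the zinc cluster protein Sef1. The TCA cycle oxidizes acetyl groups in the mitochondrion, and aconitase, which turns citrate into isocitrate, needs an iron-sulfur cluster to work.

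Levels are given as relative signal, the background-subtracted signal of a gene's probe divided by the 75th percentile of its array, so that a value of 1 equals that percentile. Levels of different probes are not comparable. Differences are log2 values with the standard error (SE) of the limma model, and a gene was called changed where p, adjusted by Benjamini-Hochberg over all genes, did not exceed 0.05 and the change reached 1.5-fold. Each strain lay on a slide of its own, so that strain and slide cannot be told apart in any comparison between strains. The slides of the 3 mutants shared a scan session that did not include the WT slide. In a comparison with WT the scan session therefore differed as well. Arrays correlated with r between 0.9724 and 0.9906 within *sef1*Δ*aft1*Δ, between 0.9856 and 0.9914 within WT, and between 0.9078 and 0.9306 across the 2 strains (log2 values at low iron).

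The probes of the deleted genes were read first. *SEF1* (SAKL0F12342g) had a relative signal of 0.0136, 0.0133, 0.00689, and 0.00794 in *sef1*Δ*aft1*Δ cells, against 0.218, 0.262, 0.258, and 0.235 in WT cells. *AFT1* (SAKL0A04532g) had 0.00198, 0.00542, 0.00209, and 0.00234 in *sef1*Δ*aft1*Δ cells, against 0.441, 0.499, 0.542, and 0.525 in WT cells. Both genes were far lower on every *sef1*Δ*aft1*Δ array than on any WT array, as the labels require. The difference was −4.61 ± 0.16 for *SEF1* (adjusted p = 4.5e-20), and *AFT1*, which was not well above background on any *sef1*Δ*aft1*Δ array, was at least 96.3-fold lower. That bound sets the WT mean against the lowest signal that counted as well above background on each *sef1*Δ*aft1*Δ array. On the other probes *SEF1* differed by −5.21 and *AFT1* by only −2.63 (adjusted p = 3.6e-13), and that *AFT1* probe was 1.31 higher in *sef1*Δ*aft1*Δ than in *aft1*Δ cells (adjusted p = 4e-07).

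Of 5315 genes tested, 952 were called higher (17.9%) and 728 lower (13.7%) in *sef1*Δ*aft1*Δ than in WT cells at low iron, 1680 in all (31.6%). The 4 *sef1*Δ*aft1*Δ values lay wholly above or below the 4 WT values for 1573 of the called genes (882 higher, 691 lower) and for 2597 of all genes (48.9%). A change of at least 2-fold was reached by 371 higher and 224 lower genes, and one of at least 8-fold by 18 higher and 16 lower genes. The split between directions depended on the scaling and on the probe. It was 681 higher and 1076 lower with each array scaled to its median, which moved the median of all genes to −0.14. Quantile normalization gave 661 and 976, with a median of −0.10. Reading each gene's other probe gave 1609 higher and 458 lower with a median of 0.24, the mean of the probes gave 1137 and 474 with a median of 0.13, and 981 genes were called in the same direction on both probes (709 higher, 272 lower). The median difference was 0.28 over the dimmest eighth of the genes and −0.14 over the brightest eighth, and its part in the counts was not tested.

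**Figure D1:**
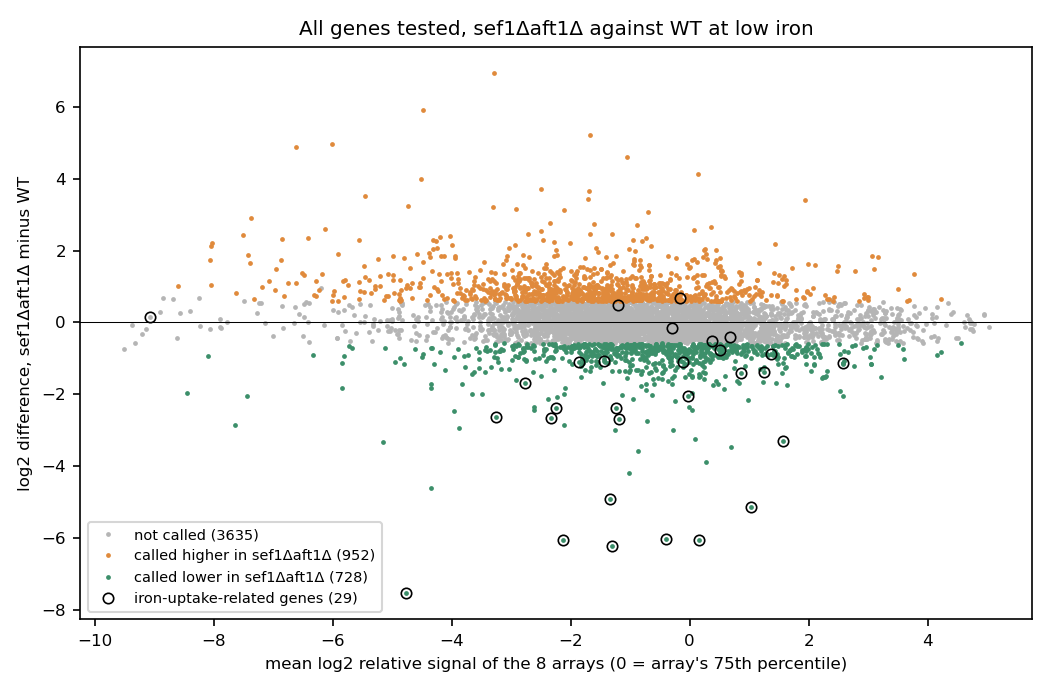
Log2 difference between *sef1*Δ*aft1*Δ and WT cells at low iron (vertical axis) against the mean log2 relative signal of the 8 arrays (horizontal axis), with 1 point for each of the 5315 genes tested, called genes colored by direction (952 higher, 728 lower), and rings around the 29 iron-uptake-related genes. Of the ringed genes 23 are called lower, and they hold most of the points below −4.

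Genes of iron uptake made up the deepest falls. Of the 29 iron-uptake-related genes of the study, 23 were called lower, 1 was called higher (*CTR2*), and 5 were not called, with a median difference of −1.68 against 0.01 for all genes. The called genes were 82.8% of the list, beside 31.6% of all genes. The list includes *AFT1* itself. It was drawn up by the study with these arrays at hand, so that its count is not independent evidence of its direction. Called lower on both probes were 20 of the 23 genes, whereas *FET5* (−0.58), *CTR3* (−0.43), and *FTH1* (−0.32) were not called on the other probe.

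The ferric reductases, which reduce ferric to ferrous iron, fell in 6 of 7 cases. *FRE2* (SAKL0F14784g) had a relative signal of 0.0248, 0.0284, 0.0216, and 0.0402 in *sef1*Δ*aft1*Δ cells, against 1.89, 1.98, 2.09, and 1.57 in WT cells. It was 66.9-fold lower (−6.06 ± 0.18, adjusted p = 3.5e-22), and the groups did not overlap. *FRE4* (SAKL0F14718g) read 1.1, 1.01, 0.882, and 0.817 in *sef1*Δ*aft1*Δ cells and 9.26, 8.18, 9.76, and 10.2 in WT cells, again without overlap, a 9.86-fold fall. Its other probe fell much further (−8.46, adjusted p = 1.7e-24). *FRE3*, *FRE5*, *FRE6*, and *FRE8* were lower by 6.15-, 6.34-, 5.21-, and 2.10-fold. *FRE2* to *FRE5* have neighboring systematic names, SAKL0F14718g to SAKL0F14784g, on chromosome F. The remaining reductase, *FRE1*, which is annotated as a reductase of iron and copper, overlapped between the strains (0.553 to 0.882 in *sef1*Δ*aft1*Δ, 0.745 to 0.969 in WT cells) and was not called (−0.15 ± 0.15, adjusted p = 0.38).

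The oxidase and permease of the high-affinity route were both sharply lower. *FET3* (SAKL0B12056g), the multicopper oxidase, had a relative signal of 0.147, 0.141, 0.133, and 0.132 in *sef1*Δ*aft1*Δ cells and 9.85, 8.53, 10.4, and 7.92 in WT cells. *FTR1* (SAKL0H18920g), the permease that works with it, had 0.316, 0.330, 0.307, and 0.439 in *sef1*Δ*aft1*Δ cells and 12.5, 13.2, 12.7, and 10.3 in WT cells. No array of either strain came near those of the other. *FET3* was 66-fold lower (−6.05 ± 0.11, adjusted p = 1.6e-27) and *FTR1* 35.2-fold lower (−5.14 ± 0.13, adjusted p = 7.8e-24). Their relatives moved less. *FTR2*, a further *FTR1* homolog, was 3.19-fold lower, *FET5*, a vacuolar oxidase in *S. cerevisiae*, 2.68-fold lower, and *FTH1*, a vacuolar permease there, 1.70-fold lower.

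Siderophore transporters, which import iron already bound to a chelating molecule, fell in 4 of 5 cases. *SIT1* (SAKL0C12122g), annotated as similar to the ferrioxamine B transporter, had a relative signal of 0.0928, 0.0955, 0.0951, and 0.0926 in *sef1*Δ*aft1*Δ cells and 5.59, 6.92, 6.37, and 5.61 in WT cells. It was 64.9-fold lower (−6.02 ± 0.12, adjusted p = 6e-27), with almost no spread among the *sef1*Δ*aft1*Δ arrays. *ARN1* (SAKL0F00792g) had 0.105, 0.0816, 0.0803, and 0.104 in *sef1*Δ*aft1*Δ cells and 2.29, 3.36, and 2.75 on the 3 WT arrays with an unmarked spot, without overlap, and was 30-fold lower (−4.91 ± 0.14). *ARN2* and *SIT2* were 6.50- and 5.22-fold lower. *ARN3* did not rise well above background in either strain, so that no level is given.

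The heme oxygenase *HMX1* (SAKL0F11242g), which frees iron from heme, was also lower. Its relative signal was 0.0333, 0.0369, 0.0437, and 0.0900 in *sef1*Δ*aft1*Δ cells and 4.49, 3.42, 3.24, and 3.05 in WT cells. The 74.8-fold difference (−6.23 ± 0.26, adjusted p = 2.2e-18) left the groups well apart. *CTH1* (SAKL0H15334g), which in *S. cerevisiae* belongs to a family that marks mRNAs for decay when iron is low, was 4.16-fold lower, and *YAP5* (SAKL0F05434g), whose *S. cerevisiae* homolog responds to excess iron, was 2.14-fold lower.

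Low-affinity iron transporters and copper transporters moved by smaller steps. *FET4* and *FET1*, both similar to the low-affinity ferrous transporter, were 2.59- and 1.86-fold lower, although their probes were designed as cross-hybridizing and cannot be read as separate genes. *CTR3*, a copper transporter (copper being the cofactor of the oxidase), was 2.19-fold lower and *CCC2*, the pump that loads copper onto it, 2.14-fold lower. *CTR2* (SAKL0H02002g), similar to a vacuolar copper transporter, went the other way. It had 1.40, 1.07, 1.05, and 1.05 in *sef1*Δ*aft1*Δ cells and 0.717, 0.654, 0.734, and 0.752 in WT cells. The rise of 0.67 ± 0.13 (adjusted p = 5.9e-05) was no longer called without replicate 1 of *sef1*Δ*aft1*Δ (0.57) or on its other probe (0.12). Not called were *SMF3* (−0.51), *CTR1* (−0.40), and *ZRT1* (0.48).

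**Figure D2:**
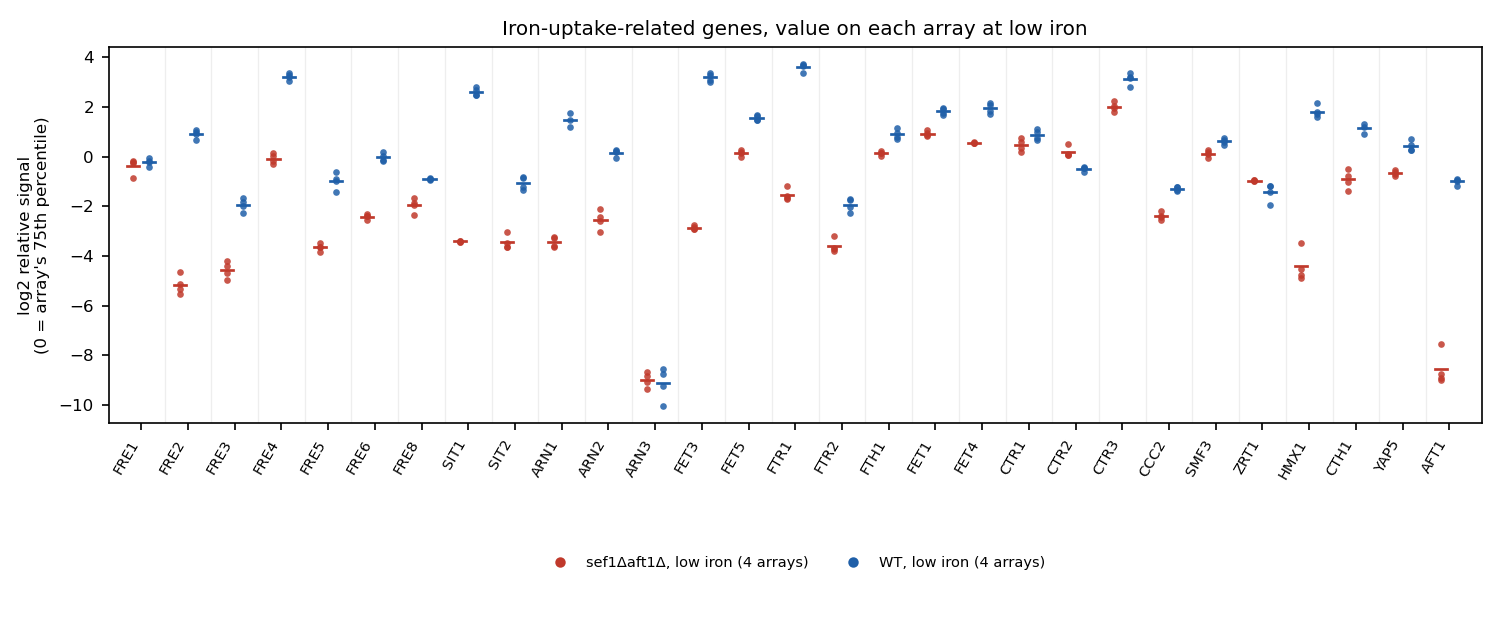
Log2 relative signal on each array (vertical axis, with 0 at the array's 75th percentile) for the 29 iron-uptake-related genes, with the 4 *sef1*Δ*aft1*Δ arrays left of the 4 WT arrays for each gene. The WT points of *FRE2*, *SIT1*, *FET3*, *FTR1*, *ARN1*, and *HMX1* stand far above the *sef1*Δ*aft1*Δ points, and those of *FRE1*, *ARN3*, and *CTR1* overlap with them.

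Of the 21 TCA cycle genes, 6 were called lower, 2 higher, and 13 neither, with a median of 0.01, that of all genes. The called share of 38.1% was near the 31.6% of all genes. The 6 lower genes were a citrate synthase, an aconitase, 3 isocitrate dehydrogenase genes, and the shared dehydrogenase subunit *LPD1*, whereas succinyl-CoA ligase, succinate dehydrogenase, fumarase, and malate dehydrogenase had no called member. Aconitase *ACO1* (SAKL0H24046g) had a relative signal of 2.44, 2.75, 2.71, and 3.48 in *sef1*Δ*aft1*Δ cells and 5.83, 6.63, 6.88, and 6.43 in WT cells. It was 2.28-fold lower (−1.19 ± 0.14, adjusted p = 1.5e-08), without overlap. *IDH1* (SAKL0E07876g) and *IDH2* (SAKL0G03520g), the subunits of the NAD-dependent isocitrate dehydrogenase, fell to a like extent. *IDH1* had 1.71, 1.63, 1.75, and 2.13 in *sef1*Δ*aft1*Δ cells and 4.8, 4.62, 5.08, and 4.76 in WT cells. *IDH2* had 1.95, 1.70, 1.87, and 2.36 in *sef1*Δ*aft1*Δ cells and 5.04, 4.8, 4.61, and 4.37 in WT cells. The groups were apart in both, with differences of −1.42 ± 0.09 (adjusted p = 1.2e-13) and −1.26 ± 0.09 (adjusted p = 6.1e-13). Citrate synthase *CIT1* (SAKL0D09152g) was 2.03-fold lower, *LPD1* (SAKL0B01958g), the lipoamide dehydrogenase, 1.77-fold lower, and *IDP3* (SAKL0D08426g), an NADP-dependent isocitrate dehydrogenase, 5.37-fold lower (−2.42 ± 0.27). All 6 were called lower on both probes. With each array scaled to its median, 9 of the 21 genes were called lower.

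Of the higher genes, *CIT3* (SAKL0B02926g), similar to a citrate and methylcitrate synthase, was dim in both strains, at 0.0241, 0.0224, 0.0267, and 0.0333 in *sef1*Δ*aft1*Δ cells and 0.00412, 0.00562, 0.00531, and 0.00579 in WT cells. Its 5.10-fold rise was not called on the other probe (0.67, adjusted p = 0.12).

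At high iron, 891 genes were called higher and 532 lower in *sef1*Δ*aft1*Δ than in WT cells (16.8% and 10%, 26.8% of 5313 in all). In the same direction at both iron levels were 896 genes (553 higher, 343 lower), 53.3% of the low-iron calls and 63% of the high-iron calls, and 12 genes were called in opposite directions. The high-iron arrays were other cultures on the same slides. The strain by iron interaction, the difference at low iron minus that at high iron, cancels an offset that is common to a slide. It was called for 726 genes (13.7% of 5312), 352 positive (6.63%) and 374 negative (7.04%). Within *sef1*Δ*aft1*Δ, 380 genes were higher (7.15%) and 398 lower (7.49%) at low than at high iron, and within WT 149 were higher (2.8%) and 101 lower (1.9%), or 14.6% and 4.71% of all genes.

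Iron uptake and the TCA cycle parted in this term. Of the 29 iron-uptake genes, 24 had a negative interaction and none a positive one, with a median of −1.82 against −0.05 for all genes. Among the 24, *ARN3* was not well above background in any group, and *AFT1* is itself a deleted gene. The study lists the 29 genes as induced at low iron in WT cells, on these same WT arrays. That choice favors a negative interaction, so that this count is not independent evidence of its direction. The interaction was −6.61 ± 0.25 for *FRE2*, −6.08 ± 0.16 for *FET3*, and −5.74 ± 0.17 for *SIT1*. *FRE2* was 0.46 higher at low than at high iron in *sef1*Δ*aft1*Δ cells (adjusted p = 0.037, below the fold threshold) and 7.07 higher in WT cells. At high iron *FET3* had a mean of 0.208 in *sef1*Δ*aft1*Δ cells and 0.203 in WT cells and a difference of 0.03 (adjusted p = 0.81). The 6 lower TCA cycle genes had no called interaction. *IDH1* differed by −1.42 at low iron and by −1.33 at high iron (interaction −0.09 ± 0.13, adjusted p = 0.67), and *ACO1* by −1.19 at low iron and by −1.18 at high iron (interaction −0.01 ± 0.20, adjusted p = 0.98). The other 4 had interactions between −0.22 (*CIT1*) and 0.49 (*IDP3*). A positive interaction was called for 7 TCA cycle genes, among them *CIT3* (2.27), *KGD1* (0.60), *KGD2* (0.89), *SDH1* (0.61), *SDH2* (0.67), and *MDH2* (0.79). That of *CIT3* was not called on its other probe (−0.06, adjusted p = 0.96). Apart from *CIT3*, those named had differences between −1.19 and −0.38 at high iron.

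Most amino acid synthesis genes rose. Of the 15 genes, 10 were called higher and none lower (66.7% called), with a median of 0.89 and the same counts on the other probe, and 5 of the 6 branched-chain genes were among them, with a median of 1.68. *LEU9* (SAKL0F05170g), an isopropylmalate synthase that starts leucine synthesis, had a relative signal of 2.71, 1.73, 2.75, and 3.31 in *sef1*Δ*aft1*Δ cells and 0.601, 0.422, 0.433, and 0.321 in WT cells. *BAT1* (SAKL0B12496g), the branched-chain aminotransferase, had 16.5, 13.7, 17.2, and 16.9 in *sef1*Δ*aft1*Δ cells and 4.01, 4.15, 4.49, and 5.10 in WT cells. Neither overlapped between strains, and the rises were 5.90-fold (2.56 ± 0.15, adjusted p = 5.8e-15) and 3.63-fold (1.86 ± 0.10, adjusted p = 8.6e-16). *LEU1* (SAKL0H21868g), the iron-sulfur isomerase that acts between them, is not in the list but was among the 15 largest rises. It had 10.6, 9.63, 11.7, and 19.9 in *sef1*Δ*aft1*Δ cells and 1.28, 1.03, 1.05, and 1.36 in WT cells. The 10.6-fold rise (3.4 ± 0.14, adjusted p = 2.6e-18) was without overlap, as the rule for naming the 15 required. The 3 genes were not called at high iron, where the differences were −0.21 for *LEU9*, 0.11 for *BAT1*, and −0.21 for *LEU1*, and the interactions were 2.77 ± 0.21, 1.75 ± 0.14, and 3.61 ± 0.20. Over the list, 9 interactions were positive and none negative, with a median of 0.88.

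Iron-sulfur and heme assembly had 6 higher and 1 lower of 13 genes (53.8% called, against 31.6% of all genes), with a median of 0.51. Their strain by iron interaction was positive for 3 and negative for 1 (30.8% called, against 13.7% of all genes), with a median of 0.10. *HEM13* (SAKL0D03168g), the coproporphyrinogen oxidase of heme synthesis, had 26.1, 19.1, 20.2, and 22.2 in *sef1*Δ*aft1*Δ cells and 7.50, 8.41, 9.48, and 8.77 in WT cells, without overlap, and was 2.55-fold higher (1.35 ± 0.12, adjusted p = 1.5e-10). *RLI1*, an iron-sulfur protein of ribosome recycling, was 2.34-fold higher. The glutaredoxin *GRX4* (SAKL0H17710g), a partner of Aft1 in iron sensing in *S. cerevisiae*, was 2.17-fold lower (−1.12 ± 0.15) but was not called on its other probe (−0.34). Mitochondrial ribosomal proteins were called higher for 9 and lower for 2 of 21 genes (52.4% called), with a median of 0.50. None of the 21 genes had a called interaction, and the median interaction was −0.18 against −0.05 for all genes. Strain and slide cannot be told apart in these rises. *MRPL38* (2.58-fold) and *MRPL27* (2.04-fold) rose most, and *MRPL11* (4.05-fold) and *MRP49* (2.50-fold) fell, although *MRPL11* was not called on its other probe (−0.14, adjusted p = 0.33) and *MRPL27* was not either (0.28, adjusted p = 0.083). Cytosolic ribosomal proteins were called higher for 5 and lower for none of 73 genes, with a median of 0.12. Their called share of 6.85% was far below that of all genes. *RPS8B* (0.93), the largest of these rises, was at −0.27 on its other probe. *RPL24B* (0.69) was not called without replicate 1 of *sef1*Δ*aft1*Δ (0.56) or without replicate 4 of WT (0.57).

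Genes of the respiratory chain and ATP synthase were called lower in 4 of 14 cases and higher in none (28.6% called, against 31.6% of all genes), with a median of −0.14. The direction did not hold on the other probe, where 2 were called higher and 1 lower with a median of 0.15. *CYC7* (SAKL0D11858g), a cytochrome c, was 3.28-fold lower (−1.71 ± 0.19, adjusted p = 6.5e-09), and *COR1*, a core subunit of the cytochrome bc1 complex, was 2.22-fold lower but was not called on its other probe (−0.38). *CYC7* had the opposite sign at high iron (0.52, adjusted p = 0.012), with an interaction of −2.23 ± 0.26. Glycolysis and fermentation had 3 lower and no higher of 19 genes (15.8% called), with a median of −0.05. On the other probe 3 were called higher and 2 lower, with a median of 0.04. The alcohol dehydrogenase *ADH3* was 2.89-fold lower, and the hexokinase *HXK2* 1.77-fold lower with the opposite sign on its other probe (0.72). Of 4 hexose transporters (50% called), *HXT3* was 1.88-fold higher and *HXT1* 1.75-fold lower.

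Chaperones and heat shock genes had 5 higher and 1 lower of 17 (35.3% called, near the share of all genes), with a median of 0.35. *HSP30* (SAKL0B06050g), a stress protein of the plasma membrane, had 0.606, 0.646, 0.458, and 2.99 in *sef1*Δ*aft1*Δ cells and 0.116, 0.134, 0.133, and 0.126 in WT cells. The rise was 6.74-fold and did not overlap, but it was 4.44-fold without the high replicate 4. *MDJ1*, a mitochondrial co-chaperone, was 3.54-fold higher (1.82 ± 0.13, adjusted p = 1.2e-12). *HSP12* lay at the threshold (−0.59 ± 0.16) and was not called in 4 of the 8 fits that left out an array, at −0.55 without replicate 2 of WT, −0.54 without replicate 3 of WT, −0.55 without replicate 1 of *sef1*Δ*aft1*Δ, and −0.53 without replicate 2 of *sef1*Δ*aft1*Δ. Of 10 oxidative stress genes, 2 were higher (*PRX1* 1.92-fold, *TRR2* 1.73-fold) and 1 lower, 30% in all, again near the share of all genes. That was *CCP1*, a heme peroxidase of the mitochondrion, at 2.87-fold lower (−1.52 ± 0.14, adjusted p = 1.2e-10), which was not called on its other probe (−0.48). Cell wall genes were called higher for 4 and lower for 6 of 19 (52.6% called, against 31.6% of all genes), with a median of −0.42. *SCW4*, a wall protein, was 3.6-fold higher, *TOS1* 2.81-fold lower, and the mannoprotein *CWP1* (SAKL0E02640g) 2.58-fold lower. *MUC1* was called higher on a probe that was not well above background on any WT array and on only 2 of the *sef1*Δ*aft1*Δ arrays, and it had the opposite sign on its other probe (−0.46), so that no fold is given.

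**Figure D3:**
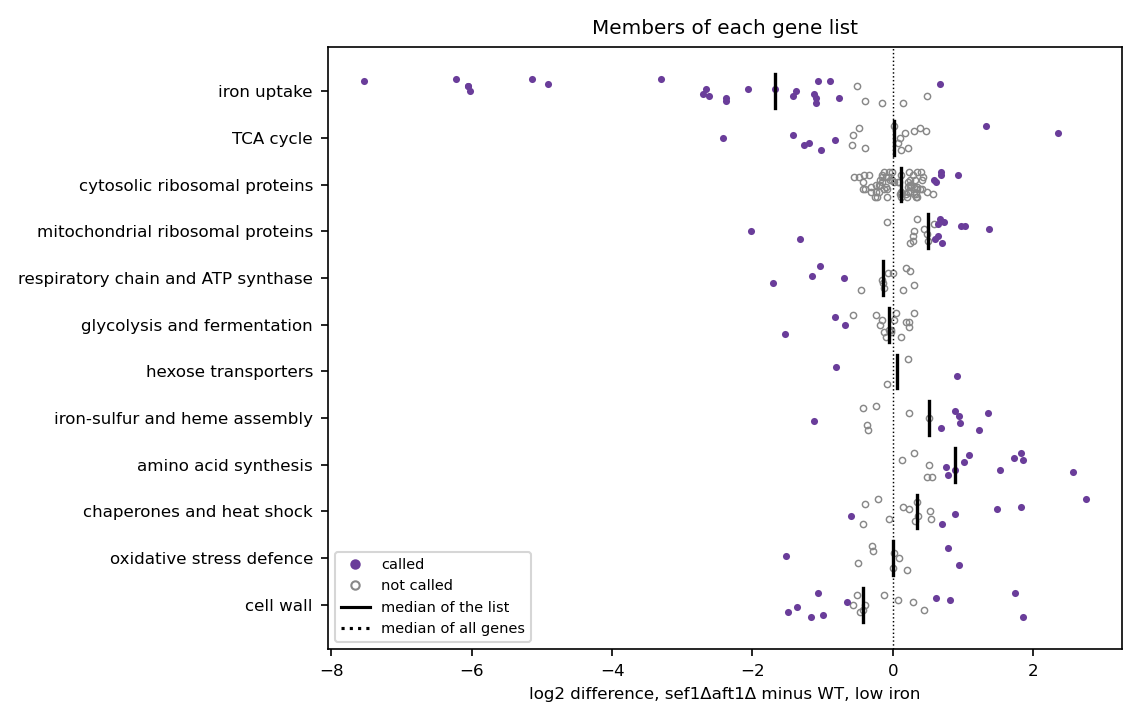
Log2 difference between *sef1*Δ*aft1*Δ and WT cells at low iron (horizontal axis) for each member of the 12 gene lists (rows), with 1 point per gene, called genes filled, and a mark at each list's median. The dotted line is the median of all genes (0.01). Iron uptake lies to the left, with a median of −1.68, and amino acid synthesis to the right, with a median of 0.89.

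The 15 largest rises beyond the listed genes, *LEU1* among them, were led by genes with no ortholog name. SAKL0B00154g, a conserved hypothetical protein, had a relative signal of 1.20, 0.663, 0.598, and 3.47 in *sef1*Δ*aft1*Δ cells and 0.00565, 0.0127, 0.00492, and 0.0203 in WT cells, a 123-fold rise (6.95 ± 0.42, adjusted p = 1.9e-14). SAKL0B12606g had 0.471, 0.203, 0.310, and 0.497 in *sef1*Δ*aft1*Δ cells and 0.00558, 0.00452, 0.00531, and 0.00811 in WT cells, a 60.7-fold rise. Both were near the lower end of the signals in WT cells, and without overlap, as the rule for naming them required. SAKL0E08580g, annotated as similar to the fatty acid synthase subunit *FAS2*, had 1.44, 1.64, 1.84, and 3.07 in *sef1*Δ*aft1*Δ cells and 0.0395, 0.0451, 0.0689, and 0.0563 in WT cells, a 37.3-fold rise (5.22 ± 0.30). *CRG1* (SAKL0H24178g), a putative methyltransferase, was 24.2-fold higher, SAKL0H21824g 17.6-fold, SAKL0D15224g 16-fold, and *STR3* (SAKL0H24882g), a cystathionine beta-lyase of methionine synthesis, 12.8-fold. The *STR3* rise was much smaller on its other probe (0.64). *ESBP6* (SAKL0C09614g), *SPO23* (SAKL0A05632g), and SAKL0D15202g rose between 8.97- and 10.9-fold, and SAKL0B05258g rose by 3.52 ± 0.17 on the log2 scale.

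Replicate 4 of *sef1*Δ*aft1*Δ set much of the size of a few rises. The *BIO3* homologs of biotin synthesis were 13.3-fold (SAKL0H11528g) and 9.26-fold (SAKL0H09504g) higher. SAKL0H11528g had 0.510, 0.281, 0.324, and 3.79 in *sef1*Δ*aft1*Δ cells and 0.0744, 0.0451, 0.0453, and 0.0375 in WT cells. Without replicate 4 the rises were 7.36- and 5.78-fold and were still called. *SFA1* (SAKL0A00880g), a formaldehyde and alcohol dehydrogenase, had 0.0461, 0.0527, 0.0523, and 0.451 in *sef1*Δ*aft1*Δ cells and was not well above background on any WT array, so that it was at least 11.2-fold higher. Its modeled rise of 31.1-fold, which is no bound, was 18-fold without replicate 4.

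The 15 largest falls outside the iron list held transporters and mitochondrial genes. *PTR2* (SAKL0E14828g), a peptide transporter, had 0.121, 0.230, 0.182, and 0.0351 in *sef1*Δ*aft1*Δ cells and 1.92, 2.16, 2.34, and 2.12 in WT cells, an 18.4-fold fall (−4.21 ± 0.29, adjusted p = 4.3e-13). *RGT2* (SAKL0D10450g), named for a glucose sensor, had 0.377, 0.369, 0.360, and 0.196 in *sef1*Δ*aft1*Δ cells and 6.36, 4.34, 4.04, and 4.29 in WT cells, a 14.8-fold fall (−3.89 ± 0.31). *PHO84* (SAKL0D00814g), the high-affinity phosphate transporter, was 11.1-fold lower. None of these overlapped between the strains, as the rule for naming them required. *PTR2* and *PHO84* were not called at high iron (−0.55 and −0.38), whereas *RGT2* was (−3.14). *CYB2* (SAKL0G16852g), the heme-containing lactate dehydrogenase of the mitochondrion, was 9.40-fold lower, *SUE1* (SAKL0F02618g), a mitochondrial protein, 8.01-fold, *PDH1* (SAKL0B02948g) 5.52-fold, and *THI13* (SAKL0G11968g), of thiamine synthesis, 5.38-fold.

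Several of the largest falls were seen on 1 probe or in every mutant. *MNE1* (SAKL0B11022g), a mitochondrial protein, fell 7.99-fold on the probe used and differed by 0.24 (adjusted p = 0.13) on the other, and SAKL0D13376g fell 6.71-fold with 0.58 on the other. SAKL0H13178g had 0.0193 to 0.0334 on the *sef1*Δ*aft1*Δ arrays, means of 0.0221 in *aft1*Δ and 0.0231 in *sef1*Δ cells, and 0.158 to 0.255 on the WT arrays. The mean of *RGT2* was 0.495 in *aft1*Δ and 0.492 in *sef1*Δ cells. SAKL0F13750g (12-fold lower in *sef1*Δ*aft1*Δ than in WT cells) had means of 0.215 in *aft1*Δ and 0.192 in *sef1*Δ cells, and *PGD1* (SAKL0H21450g, 5.11-fold lower) had 0.498 in *aft1*Δ and 0.532 in *sef1*Δ cells. In these 4 genes the WT arrays stood apart from those of every mutant, which is also the division between the scan sessions, and strain and session cannot be told apart. SAKL0C14080g (7.18-fold) and SAKL0F11220g (7.27-fold) complete the largest falls with SAKL0H25410g, described with the interaction.

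**Figure D4:**
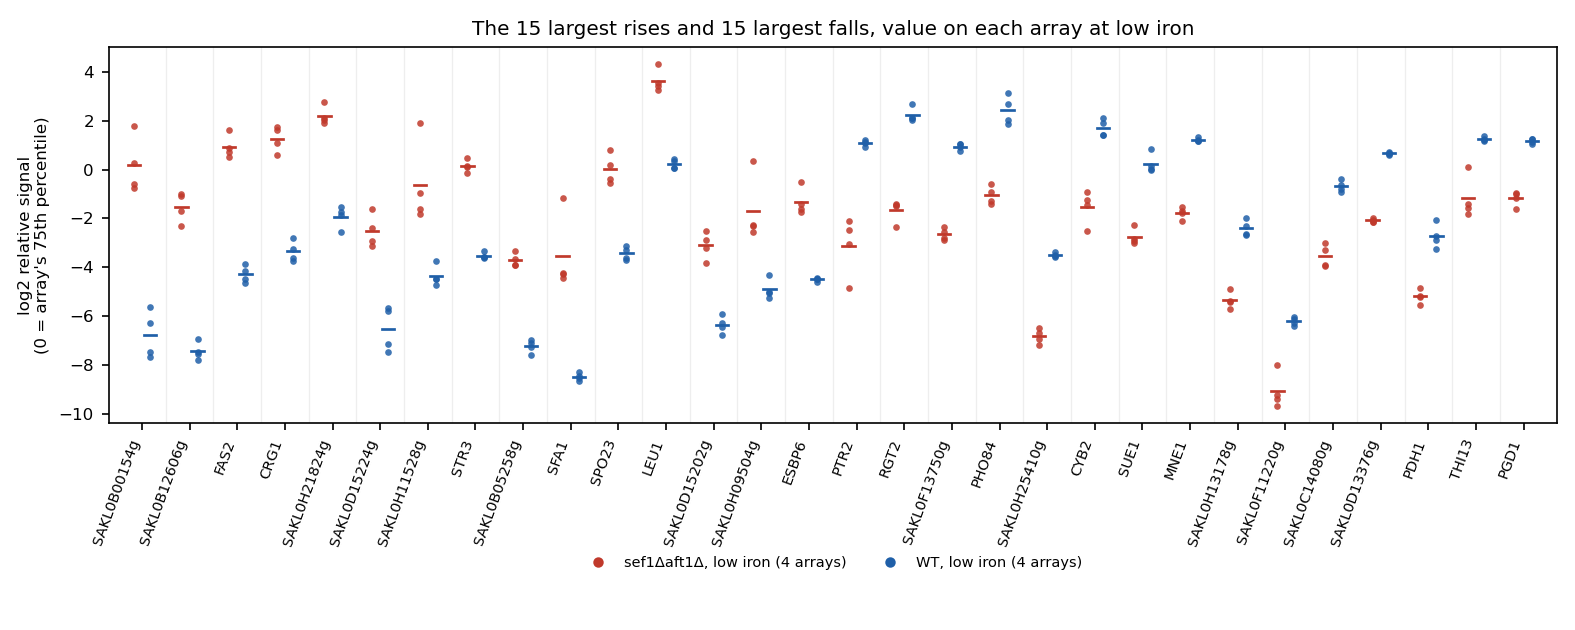
Log2 relative signal on each array (vertical axis, with 0 at the array's 75th percentile) for the 15 largest rises and then the 15 largest falls beyond the listed genes, with the 4 *sef1*Δ*aft1*Δ arrays left of the 4 WT arrays. The groups do not overlap in any of these genes, as the rule for naming them required, and replicate 4 of *sef1*Δ*aft1*Δ stands above the others in *SFA1* and both *BIO3* homologs.

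The largest interactions apart from iron uptake belonged to the same rises. They were 4.90 ± 0.37 for SAKL0B12606g, 4.55 ± 0.59 for SAKL0B00154g, 4.22 ± 0.42 for the *FAS2*-like gene, 4.15 ± 0.69 for *SFA1*, and 3.75 ± 0.28 for *CRG1*. The most negative interaction of a gene outside the iron list was −5.67 ± 0.31 (adjusted p = 9.1e-15) for SAKL0H25410g, which has some similarity to a hypothetical protein of *Eremothecium cymbalariae*. It had a relative signal of 0.0113, 0.00818, 0.00696, and 0.00959 in *sef1*Δ*aft1*Δ cells and 0.0826, 0.0863, 0.0970, and 0.0889 in WT cells at low iron. At high iron its mean was 0.0104 in *sef1*Δ*aft1*Δ cells and 0.00203 in WT cells. The modeled differences thus had opposite signs at the 2 iron levels (−3.32 at low iron, 2.35 at high iron). However, the WT mean at high iron was as low as the *AFT1* probe in *sef1*Δ*aft1*Δ cells (0.00198 to 0.00542), which was not well above background. The size of the high-iron difference and of the interaction is therefore uncertain.

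To read the loss of *SEF1* where *AFT1* is absent, *sef1*Δ*aft1*Δ cells were set against *aft1*Δ cells at low iron. These strains lay on separate slides, and *sef1*Δ*aft1*Δ was made from the *sef1*Δ strain, not from this *aft1*Δ strain. Other differences between the strains can therefore enter as well. Here 706 genes were called higher (13.3%) and 702 lower (13.2%), 26.5% of 5316. Set against WT, *aft1*Δ cells had 41% of genes called at low iron (21.9% higher, 19.1% lower) and *sef1*Δ cells 21.6%. Chromosome A held 319 of the lower and 7 of the higher genes among its 447 genes, with a median difference of −0.84. Against WT at low iron the median of chromosome A was 0.03 in *sef1*Δ*aft1*Δ and 0.85 in *aft1*Δ cells. The *aft1*Δ strain therefore had a higher median over chromosome A than both other strains. Without chromosome A, 524 genes were higher and 557 lower. Among iron-uptake genes 27.6% were called, near the 26.5% of all genes. Of them 8 were called higher in *sef1*Δ*aft1*Δ than in *aft1*Δ cells and none lower, with a median of 0.35 against 0.01 for all genes. These were *ARN2* (1.78 ± 0.12), *FTR2* (1.17 ± 0.20), *FET1* (0.87), *CTH1* (0.86), *CTR3* (0.80), *YAP5* (0.69), *FRE2* (0.65), and *CTR2* (0.63). The other probe was not called for *FTR2* (0.15, adjusted p = 0.59), *CTR2* (0.19, adjusted p = 0.14), or *FET1* (−0.12, adjusted p = 0.44). None of the 8 genes lies on chromosome A, but whether its higher median in *aft1*Δ cells affects genes of other chromosomes was not tested. *ARN2* had 0.183, 0.167, 0.232, and 0.123 on the *sef1*Δ*aft1*Δ arrays, a mean of 0.0501 in *aft1*Δ cells, and 0.949, 1.18, 1.15, and 1.21 on the WT arrays.

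TCA cycle genes moved both ways in that comparison, with 4 higher and 3 lower of 21 (33.3% called, against 26.5% of all genes). The lower genes were *IDH1* (−1.38 ± 0.09, adjusted p = 5.3e-13), *IDH2* (−1.09 ± 0.09, adjusted p = 1.9e-11), and *ACO1* (−1.09 ± 0.14, adjusted p = 9.8e-08). *IDH1* had a mean relative signal of 4.67 and *ACO1* of 5.99 in *aft1*Δ cells. The higher genes were *MDH2* (1.24), *LSC1* (0.87), *CIT3* (0.73), and *MDH1* (0.72), of which *CIT3* (−0.11) and *MDH1* (0.50) were not called on the other probe. The most negative differences of all genes, apart from *SEF1* itself (−4.61), were *IMA5* (−4.86 ± 0.39), *SUC2* (−4.28 ± 0.25), *IMA1* (−4.16 ± 0.39), and *FET2* (−2.79 ± 0.27). *IMA5* and *IMA1* are annotated as similar to glucosidases of disaccharide use, their probes were designed as cross-hybridizing, and *SUC2* is invertase. *SUC2* had 0.0208 to 0.0336 on the *sef1*Δ*aft1*Δ arrays, means of 0.505 in *aft1*Δ and 0.0226 in *sef1*Δ cells, and 0.0834 to 0.111 on the WT arrays. The largest rises were SAKL0F07194g (3.54 ± 0.19), SAKL0F09372g (2.94 ± 0.45), SAKL0H16522g (2.89 ± 0.23), SAKL0D15224g (2.87 ± 0.32), and the amino acid permease *AGP3* (2.87 ± 0.27).

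The loss of *AFT1* on top of *SEF1* was read from *sef1*Δ*aft1*Δ against *sef1*Δ cells at low iron. These strains lay on separate slides that were scanned in the same session, so that strain and slide cannot be told apart here either. Called were 658 genes higher (12.4%) and 389 lower (7.32%), 19.7% of 5316. Iron-uptake genes were lower in 25 of 29 cases and higher in 1 (*CTR2*), with a median of −1.71 against 0.05 for all genes. *FET3* differed by −5.94 ± 0.11 (adjusted p = 2.6e-27), *SIT1* by −5.81 ± 0.12, *HMX1* by −5.02 ± 0.26, and *FRE2* by −4.87 ± 0.18. In *sef1*Δ cells the means were 8.48 for *FET3*, 5.28 for *SIT1*, 1.52 for *HMX1*, and 0.819 for *FRE2*. Of the TCA cycle genes 8 were higher and none lower, with a median of 0.27. On the other probe 6 were higher and 1 lower, with *CIT3* not called (0.50). Among the 8 were *CIT3* (1.13 ± 0.28, adjusted p = 0.0012), *SDH1* (0.84), *SDH2* (0.79), *IDP3* (0.71), *FUM1* (0.67), *LSC1* (0.64), and *KGD1* (0.61). *IDH1* (0.01 ± 0.09, adjusted p = 0.93) and *ACO1* (0.22 ± 0.14, adjusted p = 0.19) were not called. Amino acid synthesis genes were higher in 13 of 15 cases and lower in none, with a median of 1.07. Outside the lists, SAKL0B00154g (8.64 ± 0.42), SAKL0D15224g (6.96 ± 0.32), and SAKL0B12606g (6.56 ± 0.25) rose most. SAKL0B00286g had 0.0679, 0.0350, 0.0394, and 0.101 in *sef1*Δ*aft1*Δ cells and was not well above background on any *sef1*Δ or WT array. It was at least 7.14-fold higher than in WT cells.

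**Figure D5:**
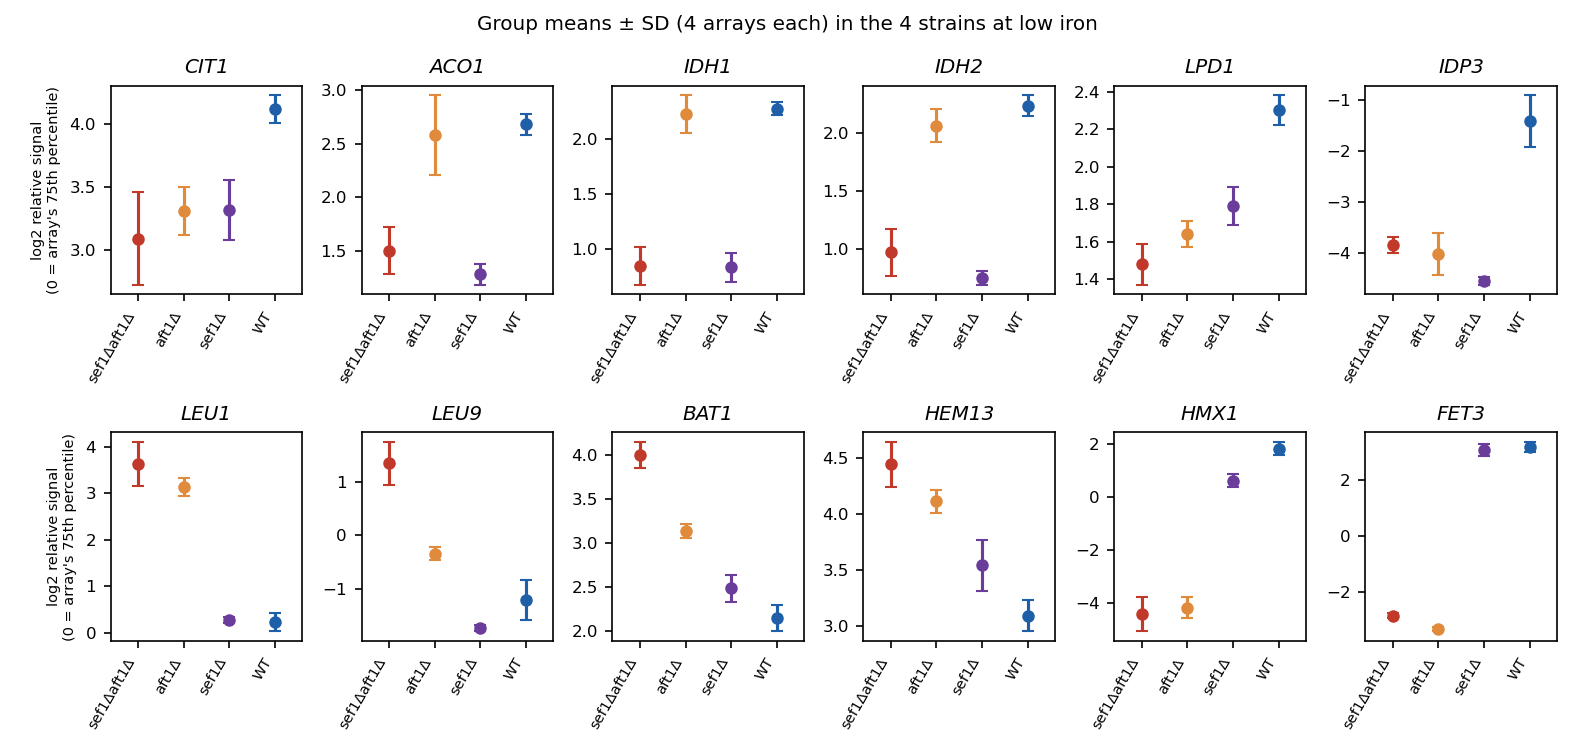
Log2 relative signal at low iron (vertical axis, with 0 at the array's 75th percentile) of 12 genes in *sef1*Δ*aft1*Δ, *aft1*Δ, *sef1*Δ, and WT cells, from left to right in each panel, with points at the mean of 4 arrays and bars of ± 1 SD. *ACO1*, *IDH1*, and *IDH2* are low in *sef1*Δ*aft1*Δ and *sef1*Δ cells, *LEU1* is high in *sef1*Δ*aft1*Δ and *aft1*Δ cells, and *FET3* and *HMX1* are low in *sef1*Δ*aft1*Δ and *aft1*Δ cells.

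If each deletion shifted a gene by the same log2 amount with and without the other, the *sef1*Δ*aft1*Δ difference would be the sum of the differences of *sef1*Δ and *aft1*Δ cells from WT. The departure from that sum was called for 2317 genes (43.6% of 5315), 1205 higher (22.7%) and 1112 lower (20.9%). The WT arrays enter it with the opposite sign to their place in the comparison with WT, so that an offset of the WT slide adds to it. The split was 1583 higher and 830 lower with each array scaled to its median, 815 and 1737 on the other probe, and 949 and 1365 with the mean of the probes. Chromosome A, with 27 higher and 285 lower genes and a median of −0.84, differed most from the rest. Without it 1012 were higher and 1028 lower. Chromosome C stood apart the other way, with 174 higher and 70 lower genes and a median of 0.24. The medians of the remaining chromosomes lay between 0.03 and 0.10.

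Iron-uptake genes departed upward in 11 of 29 cases and downward in none, with a median of 0.55 against 0.03 for all genes. The called share of 37.9% was not above the 43.6% of all genes. On the other probe 9 departed upward and 1 downward, with a median of 0.27 against −0.22 for all genes. TCA cycle genes departed upward in 10 of 21 cases and downward in none (47.6% called, near the share of all genes). *IDP3* did so by 3.32 ± 0.38 (adjusted p = 1.4e-08), with 0.0621 to 0.0801 on the *sef1*Δ*aft1*Δ arrays, means of 0.0616 in *aft1*Δ and 0.0429 in *sef1*Δ cells, and 0.274 to 0.620 on the WT arrays. It was thus low in all 3 mutants. *IDH1* (0.05 ± 0.13, adjusted p = 0.74) and *ACO1* (0.32 ± 0.20, adjusted p = 0.16) did not depart measurably from the sum. Cytosolic ribosomal protein genes departed downward in 30 of 73 cases and upward in none (41.1% called, near the share of all genes), with a median of −0.50.

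The siderophore transporter homolog *ARN4* (SAKL0E00132g), which is not in the iron-uptake list, departed by 4.83 ± 0.29 (adjusted p = 9.1e-14). It had 0.249, 0.114, 0.122, and 0.162 in *sef1*Δ*aft1*Δ cells, means of 0.0228 in *aft1*Δ and 0.0170 in *sef1*Δ cells, and 0.0817, 0.0793, 0.0647, and 0.0620 in WT cells. It was therefore lower than WT in both single mutants and higher than WT in *sef1*Δ*aft1*Δ cells (1.11 ± 0.21, adjusted p = 3.5e-05). SAKL0D15224g (5.83 ± 0.45) and *ZPS1* (4.89 ± 0.78), a putative surface protein, departed upward too, although the *ZPS1* probe was not well above background in either single mutant and its other probe was not called (0.39, adjusted p = 0.65). Downward departures were led by *IMA1* (−4.01 ± 0.55, but 0.10 on its other probe), *RLP24* (−3.84 ± 0.22), SAKL0A03036g (−3.75 ± 0.17), *IMA5* (−3.61 ± 0.55), and *ATC1* (−3.31 ± 0.30). *RLP24*, a ribosome assembly factor, had 0.372, 0.335, 0.528, and 0.395 in *sef1*Δ*aft1*Δ cells, means of 1.03 in *aft1*Δ and 0.457 in *sef1*Δ cells, and 0.0630, 0.107, 0.101, and 0.0673 in WT cells.

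Chromosomes were compared to see whether a part of the genome moved as a block in *sef1*Δ*aft1*Δ against WT cells. Median differences by chromosome ran from −0.12 (C) to 0.05 (B), and chromosome A, displaced in *aft1*Δ cells, was at 0.03. Over runs of 50 neighboring genes, the medians lay between −0.28 and 0.29. Chromosome C was the only one with more genes called lower (109) than higher (77). Every run on it from SAKL0C00110g to SAKL0C12100g had a negative median (−0.28 to −0.02), and the next run was at 0.12. In *aft1*Δ against WT cells its median was −0.26, with 71 genes higher and 167 lower. In *sef1*Δ*aft1*Δ cells it was 0.03 against *sef1*Δ and 0.11 against *aft1*Δ cells. Strain, slide, and scan session cannot be told apart in the comparisons with WT. The cause was not tested.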

How the data were processed

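RNA of 31 cultures was measured on 1-color Agilent arrays, and groups were taken from the sample labels. The authors scanned the arrays and read the images with Feature Extraction 10.5.1.1. They deposited the signal intensity of each spot after background subtraction and detrending, with marks for non-uniform spots and spots well above background. A log2 table, deposited as well, equals the log2 intensity minus a constant for each array and was used as an alternative. From the intensities, marked spots were left out (3 to 55 on the *sef1*Δ*aft1*Δ and 91 to 370 on the WT low-iron arrays, none saturated), log2 was taken, and the array's 75th percentile over non-control probes was subtracted, as in the methods. The array number limits the precision.

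Of 10620 probes, 1 was used for each of 5316 genes. It was the probe of the study's shortened best-probe list or expression tables (2739 genes), the brighter probe (2567), or the only one (10). Ortholog names, from the study's tables, were found for 2558 genes.

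All 31 arrays entered a limma 3.58.1 model (R 4.3.3) with group means, and p-values were adjusted over all genes by Benjamini-Hochberg. Tables and plots were made with Python 3.11.15, pandas 2.3.3, numpy 2.4.6, and matplotlib 3.10.9. The steps were tested on simulated data. The alternatives were other scalings (array median, quantile, normexp with an offset of 50, the log2 table), other probes, spots and filters, other models and tests, chromosome A left out, a 2-fold threshold, and each array left out. The fits with pairs within each strain and the counts on both probes were chosen after seeing the data.

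Same-numbered low-iron and high-iron arrays of a strain deviated together (r of deviations from 0.248 to 0.533 in *sef1*Δ*aft1*Δ and from 0.122 to 0.48 in WT), so that the numbers pair them in the interaction. Across *sef1*Δ*aft1*Δ and WT they did not (−0.0237 to 0.105).

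Named were *SEF1*, *AFT1*, the 29 iron-uptake and 21 TCA cycle genes, the 15 largest rises and falls without overlap, the 5 largest in each direction in each other comparison, and the 2 largest in each direction of each other list. The comparison, the gene lists, and the tests were chosen with earlier results of these data known. *RPL28* and a second *CWP1* homolog, of the lists, had no probe. A gene under this rule is not reported here.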

Additional observations from a re-analysis of the deposited data

Results flagged for a closer look

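Within a group of 4 arrays, 9 of 159 sets of values of named genes held 1 array far from the other 3 (Dixon's test), or 5.66%, where chance alone marks about 1 set in 20. Of these 9 values, 6 were of replicate 4 of *sef1*Δ*aft1*Δ. On the log2 scale of relative signal they were −1.15 for *SFA1* (others −4.44 to −4.25), 0.34 for *BIO3* SAKL0H09504g (−2.55 to −2.25), 1.44 for *IDP1* (0.55 to 0.56), 2.45 for *MDH2* (2.03 to 2.05), −0.86 for *FRE1* (−0.26 to −0.18), and −2.35 for *RGT2* (−1.47 to −1.41). The *RGT2* value of WT replicate 1 was 2.67 (others 2.01 to 2.12), and the *CTR2* value of *sef1*Δ*aft1*Δ replicate 1 was 0.48 (0.07 to 0.09). The *AFT1* value of *sef1*Δ*aft1*Δ replicate 2 was −7.53 (−8.98 to −8.74), which was not well above background. Without replicate 4 of *sef1*Δ*aft1*Δ, *IDP1* was called lower (−0.70).

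The *sef1*Δ*aft1*Δ difference from WT depended on iron for 726 genes by the interaction term of limma. The largest terms were −6.61 (*FRE2*), −6.08 (*FET3*), −5.74 (*SIT1*), −5.67 (SAKL0H25410g), and −5.56 (*HMX1*), and 4.90 (SAKL0B12606g), 4.55 (SAKL0B00154g), 4.22 (*FAS2*-like SAKL0E08580g), 4.15 (*SFA1*), and 3.75 (*CRG1*). That of SAKL0H25410g is uncertain in size, since its WT signal at high iron was as low as that of the deleted *AFT1*.

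A departure from additivity at low iron was called for 2317 genes, 1205 higher and 1112 lower, against 815 and 1737 on the other probe. Of the higher genes 27, and of the lower genes 285, lie on chromosome A, which was displaced in *aft1*Δ cells. An offset of the WT slide adds to the departure, so that strain and slide cannot be told apart in it. The largest departures were 5.83 (SAKL0D15224g), 4.89 (*ZPS1*), 4.83 (*ARN4*), 4.29 (SAKL0F09372g), and 3.85 (SAKL0A06842g), and −4.01 (*IMA1*), −3.84 (*RLP24*), −3.75 (SAKL0A03036g), −3.61 (*IMA5*), and −3.31 (*ATC1*). SAKL0A06842g and SAKL0A03036g lie on chromosome A.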

How the results depend on the processing

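A fold threshold of 2 left 595 calls in *sef1*Δ*aft1*Δ against WT, 473 against *aft1*Δ, 351 against *sef1*Δ, 1128 departures from additivity, 226 interactions, and 28 calls in the lists other than iron uptake and the TCA cycle (61 at 1.5-fold). Asking for calls on both probes left 981 of 1680 genes against WT. The median of chromosome C minus that of all genes (−0.13) was −0.19 with the mean of the probes and −0.25 with the other probe. Among genes named for a comparison and called in it on at least 1 of their probes, 8 had the opposite sign on the other probe, namely *ARN3* (−0.78), *MDH3* (−0.65), *MNE1* (0.24), SAKL0D13376g (0.58), *RPS8B* (−0.27), *HXK2* (0.72), and *MUC1* (−0.46) against WT, and *IMA1* (0.10) in the departure from additivity. Outside that count, *FET1* and *CIT3* turned sign against *aft1*Δ (−0.12 and −0.11) and *CIT3* in the interaction (−0.06), and genes called on neither probe were not counted. No gene counted in this way turned sign under the other alternatives run. The causes were not tested.

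The methods' t-test at their threshold called 924 genes higher and 708 lower, and 877 and 684 after Benjamini-Hochberg adjustment.

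Leaving out 1 array gave between 1625 and 1725 calls against WT, 1374 and 1518 against *aft1*Δ, 970 and 1134 against *sef1*Δ, 2299 and 2391 departures, 701 and 765 interactions, 23 lower iron-uptake genes in every case, 6 to 8 lower TCA cycle genes, 54 to 68 calls in the other lists, and −0.14 to −0.11 for chromosome C. *SDH3* (−0.57) and *SDH4* (−0.58), short of the fold threshold, were called in 3 of these fits each, at −0.59 to −0.61 for *SDH3* and −0.60 to −0.70 for *SDH4*.

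With the replicate number as a block, 1682 genes were called against WT (956 higher, 726 lower) and 743 interactions. Pairs within each strain gave 749 interactions in place of 726. The block changed no call of a named gene. No label says that a number is shared between strains. In *sef1*Δ*aft1*Δ against *sef1*Δ each array correlated best with its own number (r of deviations from 0.0826 to 0.269), a hint from the data, not the design. Genes within the SE of the 1.5-fold threshold and probes near background are the least certain.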
